A study of Arabidopsis with 14 samples.

Results

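ATP-binding cassette (ABC) transporters were followed in whole Arabidopsis seedlings with and without a short salt treatment. The family was taken as every listed gene whose name follows the ABC subfamily scheme (ABCA to ABCI) or its older PDR, MRP, WBC and PGP names, with at least 1 FPKM (fragments per kilobase of transcript, scaled to the mapped fragments of the library) in 2 or more of the 14 libraries. Of 127 names that matched, 93 met this level, out of 21083 genes of the whole series that did. PGP1 and PDR2 carry matching names, but RefSeq annotates PGP1 as a phosphatidylglycerophosphate synthase and PDR2 as a phosphate deficiency response gene, so 91 ABC members are described below. The rule used the level alone, and no difference between groups.

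All seedlings were 10 days old, of the Col-0 ecotype, and grew under short days (8 h light and 16 h dark). The 7 groups of 2 libraries were AtC3H3 OX with NaCl, AtC3H26 OX with NaCl, WT with NaCl, AtC3H3 OX untreated, AtC3H26 OX untreated, and 2 sets of untreated WT seedlings. NaCl was given at 150 mM, and the RNA of 1, 2 and 4 h was combined in a library, so early and late responses within these hours cannot be told apart. AtC3H3 OX was made to express the CCCH zinc-finger gene AtC3H3 with an HA tag from a modified CaMV 35S promoter, and the labels do not say which of the independent lines was sequenced; the AtC3H26 OX construct is not described in the sources used here. The methods call the 2 libraries of a group biological replicates without saying what was kept separate, so a p-value below measures only the spread between these libraries.

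In these libraries the overexpressed genes did not follow the labels. The paper, in contrast, selected its AtC3H3 OX lines as overexpressing by qRT-PCR and semi-qRT-PCR. Libraries that carry the label AtC3H3 OX with NaCl had 14.8 and 13.5 FPKM of AtC3H3, against 20.7 and 23.0 FPKM in salt-treated WT (log2 fold change -0.59, adjusted p = 0.0252 in limma). Those that carry the label AtC3H26 OX with NaCl had 5.11 and 4.39 FPKM of AtC3H26, against 7.97 and 7.498 FPKM in salt-treated WT (log2 fold change -0.60, adjusted p = 0.0286). In untreated seedlings neither gene was called in its own line. The lines are therefore named by their labels throughout, and a direction for a line is a direction for the libraries that carry that label. The treatment itself was visible in every genotype, since 13 of the 13 salt and drought marker genes found, such as RD29A and RD20, rose with NaCl in all 3 genotypes. Replicate libraries correlated at 0.977 to 0.982, and the summed FPKM of a library lay between 665439 and 729899.

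ABC proteins couple the hydrolysis of ATP to work, mostly the movement of a substrate across a membrane. In plants the family carries hormones (auxin, abscisic acid, cytokinin), the lipids that make cuticle and suberin, and conjugates and metal chelates that are stored in the vacuole. The ABCE and ABCF proteins have no membrane-spanning part and act with ribosomes, and many ABCI proteins are single subunits of organellar complexes.

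The family was broadly expressed. The mean FPKM over the 14 libraries had a median of 9.15 over the 91 members, 43 members averaged over 10 FPKM, and 81 members reached 1 FPKM in all 14 libraries. The highest mean belonged to the soluble protein ABCF5 at 138 FPKM. It was followed by ABCF1 at 90.2 FPKM, by ABCI8, the SUFB subunit of plastid iron-sulfur cluster assembly, at 84.3 FPKM, and by ABCE2, a ribosome recycling factor, at 64.0 FPKM. Of the membrane transporters the cuticular wax exporter ABCG12 (CER5) was the highest, at 62.6 FPKM. ABCI18 averaged 55.7 FPKM, and ABCG11, which exports cutin and wax precursors together with ABCG12, averaged 48.4 FPKM. ABCC1, a vacuolar carrier of phytochelatin complexes, averaged 43.1 FPKM. The auxin transporter ABCB19 averaged 42.0 FPKM and ABCG34, which exports the phytoalexin camalexin, averaged 40.4 FPKM.

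The subfamilies were not equally represented. The ABCC subfamily (13 of 15 listed genes), the ABCG subfamily (33 of 42), the ABCI subfamily (15 of 18), the ABCF subfamily (4 of 5) and the ABCD subfamily (2 of 2) had most of their genes among the members. The ABCB subfamily contributed 17 of 28, the ABCE subfamily 2 of 3 and the ABCA subfamily 5 of 12. The median of the mean FPKM was highest in the ABCF subfamily at 62.1 and lowest in the ABCA subfamily at 3.19. Of the 34 listed names below the level, 30 never exceeded 0.5 FPKM and 3 were listed at 0 in all 14 libraries. Among them were ABCG26, needed for the pollen wall, and ABCB24, a neighbour and close relative of ABCB23. The lowest members were ABCG4, which reached 1 FPKM in 2 libraries with a highest value of 1.43, and ABCE1, which reached it in 5. The nearest gene outside was ABCG40, an importer of abscisic acid, with 1 library at 1.09 FPKM. Its values were 0.896 and 0.885 FPKM in AtC3H3 OX, 0.861 and 0.752 FPKM in AtC3H26 OX and 0.950 and 1.09 FPKM in WT with NaCl, against 0.108 to 0.323 FPKM in the 8 untreated libraries. All 6 NaCl libraries of ABCG40 were thus above all 8 untreated ones, at levels that the rule left out of the tests.

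Salt treatment changed most of the family, and mainly upwards. In WT, 44 of 91 members (48.4%) rose and 15 (16.5%) fell with NaCl, beside 25.6% of all 20436 genes tested that rose and 25.5% that fell. The median log2 fold change was 0.26 over the members and -0.02 over all genes tested. In AtC3H3 OX 47 of 89 members rose and 13 fell (31.4% and 29.9% of all genes). In AtC3H26 OX 42 of 89 members rose and 14 fell (29.2% and 26.4% of all genes). Leaving out WT NaCl replicate 1 lowered the number called in WT to 34, with 28 rising and 6 falling, and leaving out WT NaCl replicate 2 lowered it to 39, with 31 rising and 8 falling. NaCl-treated seedlings had also been moved to filter paper soaked in MS solution while untreated seedlings were harvested at 0 h, so transfer, time of day and NaCl cannot be told apart. In whole seedlings a change in the share of a cell type and a change of RNA per cell cannot be told apart either.

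The proportions differed among subfamilies. In WT, 10 of 13 ABCC members rose and 1 fell, with a median log2 fold change of 0.74, and 18 of 33 ABCG members rose and 4 fell, with a median of 0.49. The ABCB members followed with 9 of 17 rising and 3 falling. Of the ABCI members 2 of 15 rose and 5 fell, with a median of -0.13. In AtC3H3 OX 11 of 13 ABCC members rose and 1 fell (median 0.53), 18 of 32 ABCG members rose and 4 fell (median 0.61), and 4 of 15 ABCI members rose and 4 fell (median -0.10). In AtC3H26 OX 9 of 13 ABCC members rose and 1 fell (median 0.61), 16 of 32 ABCG members rose and 4 fell (median 0.31), and 4 of 15 ABCI members rose and 3 fell (median 0.03). The share that rose was thus higher in the ABCC than in the ABCG subfamily in each genotype, whereas the order of their medians was turned round in AtC3H3 OX. The difference between subfamilies was not tested.

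**Figure D1:**
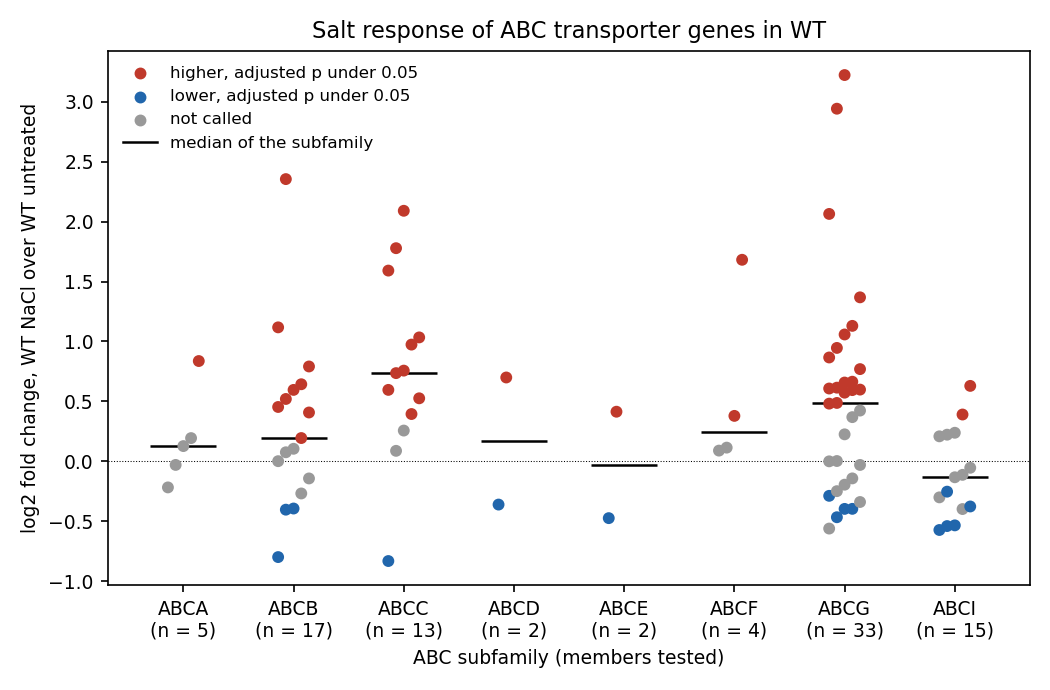
Log2 fold change of each ABC member in WT with NaCl (2 libraries) over untreated WT (4 libraries), by subfamily. Points are genes, coloured by the limma call, and lines are subfamily medians, which lie at 0.74 for ABCC, 0.49 for ABCG and -0.13 for ABCI.

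The 3 salt comparisons were made on separate libraries. Of the 89 members tested in all of them, 36 rose in all 3 genotypes (40.4%, beside 20.9% of all 19548 genes) and 8 fell in all 3 (8.99%, beside 17.4%). No member was called in opposite directions, and 17 were called in none. On the log2(FPKM + 1) scale of the fit, which understates changes of low genes, 9 members rose by more than 2-fold in all 3 genotypes. Taken singly, the comparison in WT had 13 of 91 members called more than 2-fold higher, beside 8.64% of all genes tested. The counts were 12 of 89 in AtC3H3 OX (8.75% of all genes) and 13 of 89 in AtC3H26 OX (8.27%). Shares of all genes were not counted for increases past 2-fold in all 3 genotypes, for opposite calls, for no call or for decreases past 2-fold. No call of a decrease among the members passed 2-fold on this scale. In FPKM itself the low member ABCC13 averaged 1.83 with NaCl against 4.23 untreated in AtC3H3 OX, 2.06 against 5.10 in AtC3H26 OX and 1.71 against 3.84 in WT, which is more than 2-fold lower. Filtering on low values left 2 members in the WT comparison that reached 1 FPKM only with NaCl (ABCC9 and ABCG21) and 2 that reached it only in untreated libraries (ABCE1 and ABCG4). The corresponding members were ABCC7, ABCC9 and ABCG10 with NaCl in AtC3H3 OX and ABCC9 with NaCl in AtC3H26 OX.

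**Figure D2:**
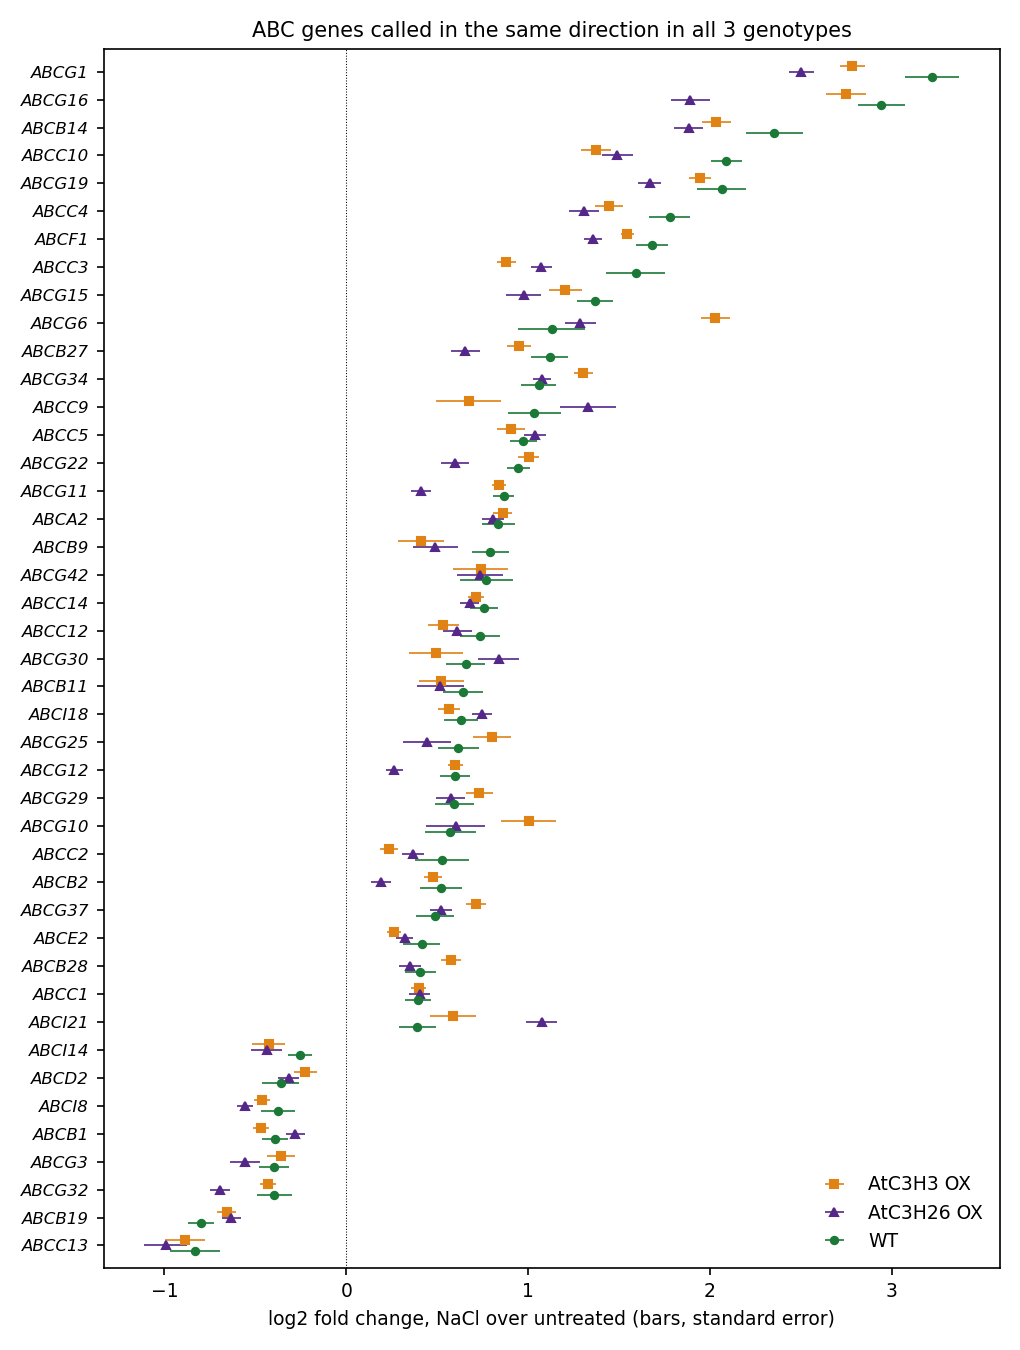
Log2 fold changes with NaCl over untreated in AtC3H3 OX, AtC3H26 OX and WT (bars, standard error) for 43 of the 44 members called in the same direction in all 3 genotypes. ABCG1 lies farthest to the right and ABCC13 farthest to the left in WT.

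The largest increase was that of ABCG1, which takes part in the suberin barrier of roots and in the pollen wall. Its level was 34.9 and 35.8 FPKM in AtC3H3 OX, 29.3 and 29.6 FPKM in AtC3H26 OX and 43.7 and 45.9 FPKM in WT with NaCl. Untreated, it was 4.49 and 4.08 FPKM in AtC3H3 OX, 4.50 and 4.24 FPKM in AtC3H26 OX, and between 3.23 and 4.73 FPKM in the 4 WT libraries. The lowest NaCl library was far above the highest untreated one, and the log2 fold change in WT was 3.22 ± 0.15 (SE, adjusted p = 9.61e-06).

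ABCG16, the relative of ABCG1 that has also been described as a jasmonate transporter, was second. It stood at 13.5 and 14.6 FPKM in AtC3H3 OX, 8.15 and 9.05 FPKM in AtC3H26 OX and 15.8 and 14.9 FPKM in WT with NaCl, against 0.907 to 1.59 FPKM in the 8 untreated libraries. The groups did not overlap, and AtC3H26 OX had the lowest NaCl values. The log2 fold change was 2.94 ± 0.13 (SE) in WT. ABCG19, linked to kanamycin resistance, lies in the same cluster of neighbouring genes as ABCG16, with ABCG17 and ABCG18 between them. ABCG19 rose by 2.06 on the log2 scale in WT and stood at 39.1 to 43.9 FPKM in the 6 NaCl libraries, against 7.50 to 12.2 FPKM in the 8 untreated ones. ABCG18 rose by 0.66 in WT and ABCG17 never exceeded 0.028 FPKM, so the neighbours were not uniform. Reads from near-identical stretches of neighbouring copies may be divided between them, and such values are uncertain to that extent.

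Other transporters of surface and wall lipids rose as well. ABCG6, needed for suberin with ABCG2 and ABCG20, stood at 14.8 and 15.2 FPKM in AtC3H3 OX, 10.9 and 10.3 FPKM in AtC3H26 OX and 13.7 and 12.8 FPKM in WT with NaCl. Untreated, it was 3.02 and 2.84 FPKM in AtC3H3 OX, 3.71 and 3.81 FPKM in AtC3H26 OX, 4.82 and 4.28 FPKM in the first WT set and 5.98 and 7.33 FPKM in the second. The untreated WT libraries were thus the highest of the untreated ones, and ABCG6 rose by 1.13 on the log2 scale in WT, 2.03 in AtC3H3 OX and 1.29 in AtC3H26 OX. ABCG20 was called higher in AtC3H3 OX (0.78) and AtC3H26 OX (0.41) and had a log2 fold change of 0.23 in WT that missed the threshold (adjusted p = 0.338). The summed FPKM of 17 root marker genes lay between 108 and 126 in the NaCl libraries and between 104 and 114 in the untreated lines, against 145 to 146 in WT set 1 and 173 to 176 in WT set 2. Of the root markers tested, 0 of 16 rose and 5 fell with NaCl in WT (25.6% and 25.5% of all genes). In AtC3H3 OX 6 of 15 rose and 5 fell (31.4% and 29.9%), and in AtC3H26 OX 7 of 15 rose and 5 fell (29.2% and 26.4%). The sums of the lines thus join markers that changed in opposite directions. The summed FPKM of 20 shoot markers lay between 35786 and 38212 with NaCl and between 39964 and 48872 untreated, and no marker of either organ was at 0 in every library. The part of these organ markers in the values of the members was not tested.

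Among the exporters of the shoot cuticle, ABCG11 and ABCG12 rose, ABCG32 fell and ABCG13 was not called. ABCG11 stood at 69.6 and 69.4 FPKM in AtC3H3 OX, 52.1 and 55.0 FPKM in AtC3H26 OX and 65.1 and 67.0 FPKM in WT with NaCl, against 34.8 to 40.7 FPKM in the 8 untreated libraries. Its log2 fold change was 0.87 in WT, 0.84 in AtC3H3 OX and 0.41 in AtC3H26 OX. ABCG12 rose by 0.60 in WT, 0.60 in AtC3H3 OX and 0.27 in AtC3H26 OX. ABCG32 (PEC1), which exports cutin precursors, fell by 0.40 in WT, 0.43 in AtC3H3 OX and 0.69 in AtC3H26 OX. ABCG13, known from the petal cuticle, was not called, with a log2 fold change of -0.03 in WT (adjusted p = 0.843). Among enzymes and regulators of cutin, wax and suberin synthesis, 20 of 34 were higher and 5 lower in WT (25.6% and 25.5% of all genes). In AtC3H3 OX 23 of 33 were higher and 5 lower (31.4% and 29.9% of all genes). In AtC3H26 OX 21 of 33 were higher and 7 lower (29.2% and 26.4% of all genes). The largest increases among them in WT were those of MYB41, a regulator of suberin (2.66), the acyltransferase gene GPAT7 (2.42) and MYB96, a regulator of wax synthesis (2.30).

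Carriers known for abscisic acid transport or guard cell function were examined one by one, with no list fixed for them. ABCG25, an exporter of abscisic acid, stood at 10.4 and 8.68 FPKM in AtC3H3 OX, 7.61 and 8.25 FPKM in AtC3H26 OX and 9.39 and 9.01 FPKM in WT with NaCl. In untreated libraries it stood at 4.98 and 5.07 FPKM in AtC3H3 OX, 4.87 and 6.35 FPKM in AtC3H26 OX and 4.94 to 6.61 FPKM in WT, below every NaCl library. The log2 fold change was 0.61 in WT, 0.80 in AtC3H3 OX and 0.44 in AtC3H26 OX. ABCG22, which limits water loss through stomata, stood at 17.1 to 22.5 FPKM in the 6 NaCl libraries, against 10.4 to 11.9 FPKM in the 8 untreated ones, and rose by 0.95 in WT. ABCG30, an importer of abscisic acid in seeds, rose by 0.66 in WT, but its annotated interval overlaps that of ABCG42, which rose by 0.77, so these calls may share reads. ABCG31, which exports abscisic acid from the endosperm, stood at 1.15 to 2.30 FPKM and was called in no genotype. ABCB14, which imports malate into guard cells, showed the third largest increase in WT. It stood at 24.4 and 23.2 FPKM in AtC3H3 OX, 19.9 and 18.7 FPKM in AtC3H26 OX and 24.0 and 23.9 FPKM in WT with NaCl, against 3.0 to 5.39 FPKM in the 8 untreated libraries. Its log2 fold change was 2.35 in WT, 2.03 in AtC3H3 OX and 1.88 in AtC3H26 OX.

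The auxin transporters were divided. ABCB19, which moves auxin down the stem and root, had the largest decrease among the ABCB members. It stood at 33.2 and 30.9 FPKM in AtC3H3 OX, 31.0 and 32.6 FPKM in AtC3H26 OX and 29.3 and 27.8 FPKM in WT with NaCl, against 46.2 to 53.1 FPKM in the 8 untreated libraries. The groups were clearly apart, and it fell by 0.80 in WT, 0.66 in AtC3H3 OX and 0.63 in AtC3H26 OX. Its partner ABCB1 fell by 0.39 in WT, 0.47 in AtC3H3 OX and 0.28 in AtC3H26 OX. ABCB4, an auxin carrier of the root epidermis, rose by 0.45 in WT and 0.69 in AtC3H3 OX and was not called in AtC3H26 OX (0.16, adjusted p = 0.0729). ABCB21, the close relative of ABCB4, rose by 0.60 in WT and 0.38 in AtC3H3 OX and was not called in AtC3H26 OX (0.32, adjusted p = 0.0544). ABCG37, which exports indole-3-butyric acid and phenolics from roots, rose in all 3 genotypes (0.49 in WT). Of 22 other genes of auxin transport (PIN, AUX/LAX and PILS genes and their regulators), 3 rose and 13 fell in WT (25.6% and 25.5% of all genes). In AtC3H3 OX 3 rose and 11 fell (31.4% and 29.9% of all genes), and in AtC3H26 OX 3 rose and 13 fell (29.2% and 26.4%). The largest of these decreases in WT were those of PIN7 (-1.90), PIN4 (-1.80) and LAX2 (-1.70).

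**Figure D3:**
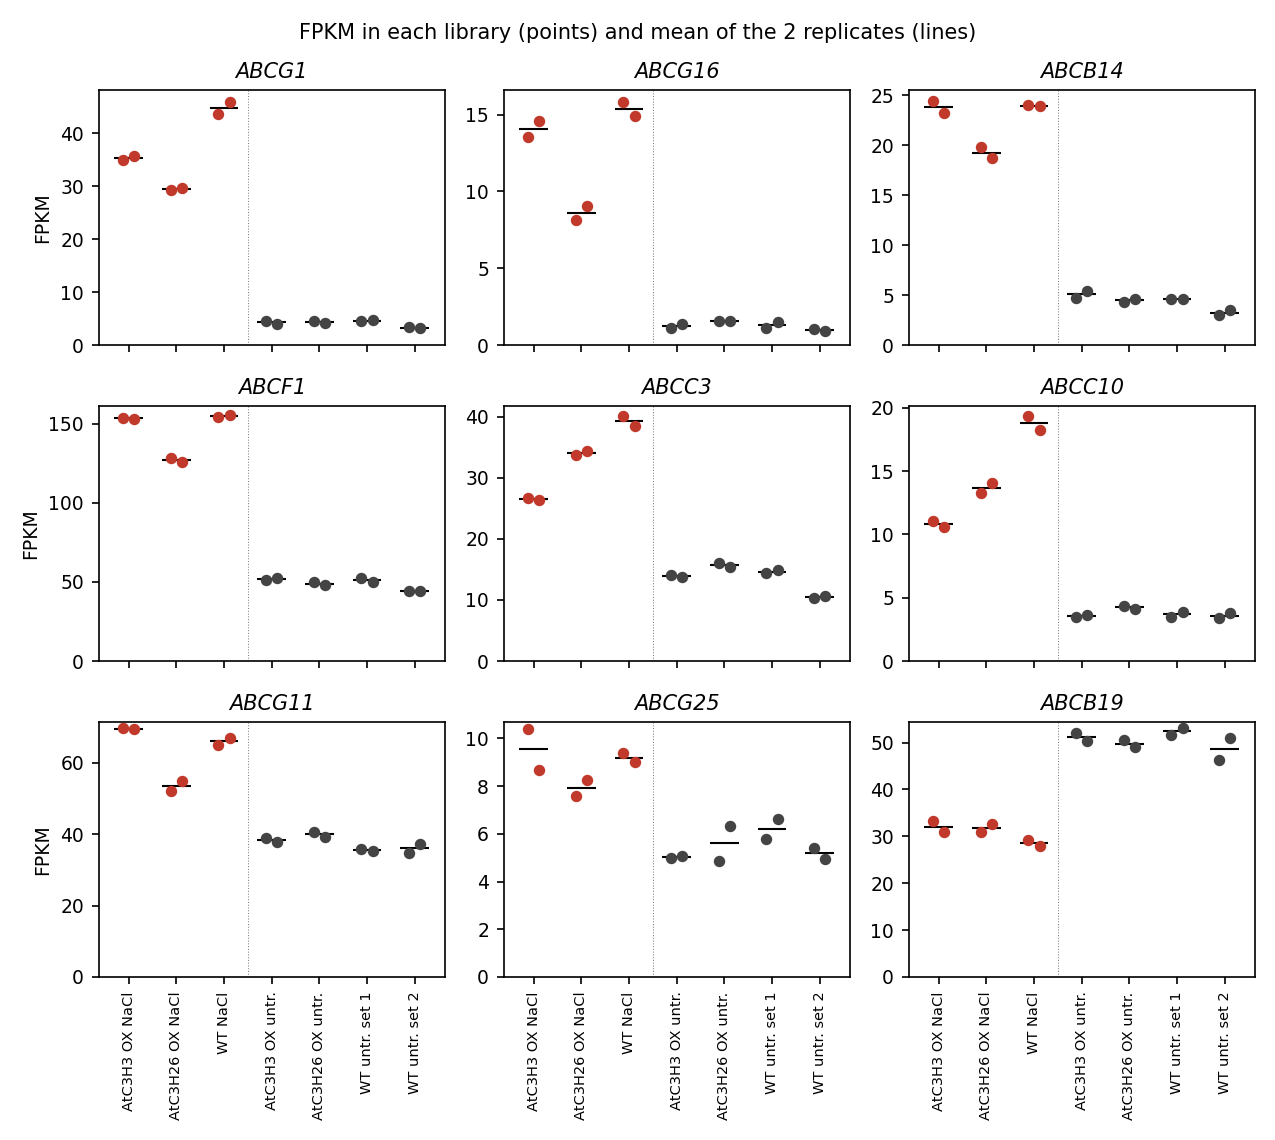
FPKM of 9 ABC genes in each library (points) with the mean of the 2 replicates (lines), for the 3 groups with NaCl (red) and the 4 untreated groups (grey, untr.). For ABCG1, ABCG16, ABCB14, ABCF1, ABCC3, ABCC10, ABCG11 and ABCG25 every NaCl library lies above every untreated one, and for ABCB19 every NaCl library lies below.

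Most of the vacuolar and detoxifying ABCC proteins rose in all 3 genotypes. ABCC10 stood at 11.1 and 10.6 FPKM in AtC3H3 OX, 13.3 and 14.1 FPKM in AtC3H26 OX and 19.3 and 18.2 FPKM in WT with NaCl, against 3.36 to 4.36 FPKM in the 8 untreated libraries. It rose by 2.09 on the log2 scale in WT, 1.37 in AtC3H3 OX and 1.49 in AtC3H26 OX. ABCC3, a vacuolar carrier of glutathione conjugates and chlorophyll catabolites, stood at 26.7 and 26.4 FPKM in AtC3H3 OX, 33.8 and 34.4 FPKM in AtC3H26 OX and 40.2 and 38.5 FPKM in WT with NaCl. Its untreated levels were 14.1 and 13.8 FPKM in AtC3H3 OX, 16.0 and 15.3 FPKM in AtC3H26 OX, 14.4 and 14.9 FPKM in the first WT set, and 10.2 and 10.7 FPKM in the second, the lowest of all. The log2 fold change was 1.59 in WT, 0.88 in AtC3H3 OX and 1.07 in AtC3H26 OX. ABCC4, a protein of the plasma membrane that affects stomatal opening, rose by 1.78, 1.44 and 1.31 in the same 3 genotypes. ABCC5, the vacuolar importer of inositol hexakisphosphate, rose by 0.97, 0.91 and 1.04, and ABCC14 by 0.76, 0.71 and 0.68. Both vacuolar phytochelatin carriers also rose in WT, ABCC1 by 0.39 and ABCC2 by 0.53. ABCC13 was the exception. It stood at 1.90 and 1.76 FPKM in AtC3H3 OX, 2.08 and 2.03 FPKM in AtC3H26 OX and 1.88 and 1.55 FPKM in WT with NaCl, against 3.35 to 5.44 FPKM untreated, and fell by 0.83 in WT, 0.89 in AtC3H3 OX and 0.99 in AtC3H26 OX.

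Other genes of the same chemistry were counted. Of 21 genes for glutathione, phytochelatin and metal handling, metal pumps and exchangers included, 16 rose and 1 fell in WT (25.6% and 25.5% of all genes). The largest increases in WT were those of GSTU4 (4.17), GSTF6 (2.83) and GSTU24 (2.59). The counts were 16 and 2 in AtC3H3 OX (31.4% and 29.9% of all genes) and 15 and 2 in AtC3H26 OX (29.2% and 26.4%). ABCB27 (ALS1), a tonoplast protein needed for aluminium tolerance, rose by 1.12 in WT, 0.95 in AtC3H3 OX and 0.66 in AtC3H26 OX. Other genes of aluminium tolerance, in the ABCI subfamily, did not. ABCI17 (STAR1) fell by 0.54 in WT and 0.66 in AtC3H3 OX, and ABCI16 (ALS3) was called in no genotype. Full-size ABCG proteins linked to defence compounds and phenolics were divided. ABCG34 rose by 1.06 in WT, 1.30 in AtC3H3 OX and 1.07 in AtC3H26 OX, and ABCG29, which exports the monolignol p-coumaryl alcohol, rose by 0.59 in WT. ABCG35 fell by 0.29 in WT and was called in neither line. ABCG34 stood at 55.7 to 61.1 FPKM in the 6 NaCl libraries, against 22.6 to 30.7 FPKM in the 8 untreated ones. ABCG14, which loads cytokinin into the xylem, fell by 0.47 in WT and 0.45 in AtC3H3 OX, and its log2 fold change of -0.01 in AtC3H26 OX was not called (adjusted p = 0.925).

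Peroxisomes, where fatty acids are broken down and jasmonate precursors are processed, hold ABC carriers of the ABCD subfamily. Of 20 genes of fatty acid breakdown, jasmonate synthesis and peroxisomal import, 14 rose and 1 fell in WT (25.6% and 25.5% of all genes). The increases in WT were led by ACX1 (2.80), OPR3 (2.80) and PNC2 (2.26). In AtC3H3 OX 15 rose and 2 fell (31.4% and 29.9% of all genes), and in AtC3H26 OX 15 rose and 2 fell (29.2% and 26.4%). ABCD2 fell by 0.36 in WT, 0.23 in AtC3H3 OX and 0.32 in AtC3H26 OX.

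Members of organelles and of the endoplasmic reticulum changed in either direction. ABCI8 (SUFB) stood at 66.5 to 75.4 FPKM in the 6 NaCl libraries, against 78.5 to 104 FPKM in the 8 untreated ones, and fell by 0.38 in WT, 0.46 in AtC3H3 OX and 0.56 in AtC3H26 OX. Of the plastid lipid importer TGD, the permease ABCI14 (TGD1) fell in all 3 genotypes (-0.25 in WT), whereas ABCI13 (TGD3) was called in none and ABCI15 (TGD2) was called higher in AtC3H26 OX alone (0.26, adjusted p = 0.0293). The mitochondrial exporter ABCB25 (ATM3), needed for cytosolic iron-sulfur proteins, was called in WT (0.19, adjusted p = 0.0491) and in neither line. ABCB28, in contrast, rose in all 3 genotypes, by 0.41 in WT, 0.58 in AtC3H3 OX and 0.35 in AtC3H26 OX. Among the ABCI19 to ABCI21 proteins of the endoplasmic reticulum, which act on cytokinin responses, ABCI21 rose in all 3 genotypes. ABCI21 stood at 22.9 and 17.6 FPKM in AtC3H3 OX, 20.3 and 23.0 FPKM in AtC3H26 OX and 21.4 and 20.5 FPKM in WT with NaCl. Untreated, it was 12.4 and 13.8 FPKM in AtC3H3 OX, 9.46 and 10.0 FPKM in AtC3H26 OX and 13.7 to 17.3 FPKM in WT, so the genotypes were closer together with NaCl than without. ABCI20 was called in no genotype.

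Of the soluble members, ABCF1 had the largest change. It stood at 153 and 153 FPKM in AtC3H3 OX, 128 and 126 FPKM in AtC3H26 OX and 154 and 155 FPKM in WT with NaCl, against 44.0 to 52.6 FPKM in the 8 untreated libraries. It rose by 1.68 in WT, 1.55 in AtC3H3 OX and 1.36 in AtC3H26 OX. ABCE2 rose by 0.41, 0.26 and 0.32 in the same genotypes. ABCF5, the most abundant member, was at 141 and 145 FPKM in AtC3H3 OX, 115 and 112 FPKM in AtC3H26 OX and 143 and 143 FPKM in WT with NaCl, against 118 to 154 FPKM in the 8 untreated libraries. ABCF5 was called in AtC3H26 OX alone, where it fell by 0.39.

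The lines were next compared with WT under NaCl. For AtC3H3 OX, this comparison addresses which transcripts differ in the line under salt stress. In the samples labelled AtC3H3 OX no member was called higher and 4 of 89 were called lower, beside 1.30% and 1.37% of all 19642 genes. The 4 were ABCC10 (-0.74, adjusted p = 0.00943), ABCC3 (-0.55, adjusted p = 0.00931), ABCC4 (-0.44, adjusted p = 0.0375) and ABCG1 (-0.33, adjusted p = 0.0319), all of which rose with NaCl in every genotype. Of the 89 members 7 were lower and 5 higher at an unadjusted p under 0.05, a threshold at which the share of all genes was not counted. The number called was 1 without WT NaCl replicate 1, 2 without WT NaCl replicate 2 and 2 without AtC3H3 OX NaCl replicate 1.

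Among salt-treated samples labelled AtC3H26 OX no member was called higher and 9 of 89 were called lower, beside 2.55% and 4.54% of all 19670 genes. ABCG16 (-0.77, adjusted p = 0.00865), ABCG1 (-0.59, adjusted p = 0.00539), ABCC10 (-0.43, adjusted p = 0.0236), ABCB27 (-0.38, adjusted p = 0.0175), ABCF5 (-0.32, adjusted p = 0.0117) and ABCB14 (-0.30, adjusted p = 0.0407) had the largest differences. The remaining 3 were ABCG11 (-0.30), ABCF1 (-0.28) and ABCG12 (-0.28). Of the 9, 4 belong to the ABCG subfamily, which held 32 of the 89 members tested. ABCG1, ABCG11 and ABCG12 are carriers of barrier lipids, whereas ABCG6, ABCG20 and ABCG32, also carriers of barrier lipids, were not called. Among the genes that make these lipids, 17 of 33 were lower and none higher in the same comparison, led by the alkane-forming enzyme CER1 (-0.80), the elongase KCS2 (-0.78) and GPAT7 (-0.58). CER1 stood at 21.3 and 21.7 FPKM in AtC3H26 OX, against 38.8 and 37.8 FPKM in WT. The salt markers moved with them, 10 of 13 being lower and none higher in AtC3H26 OX, and their part in the lower transporter levels was not tested. All 9 calls were lost without WT NaCl replicate 1, and likewise without WT NaCl replicate 2, each of which leaves a single WT library that is assumed to vary like the lines. Both line comparisons use the same WT NaCl libraries.

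**Figure D4:**
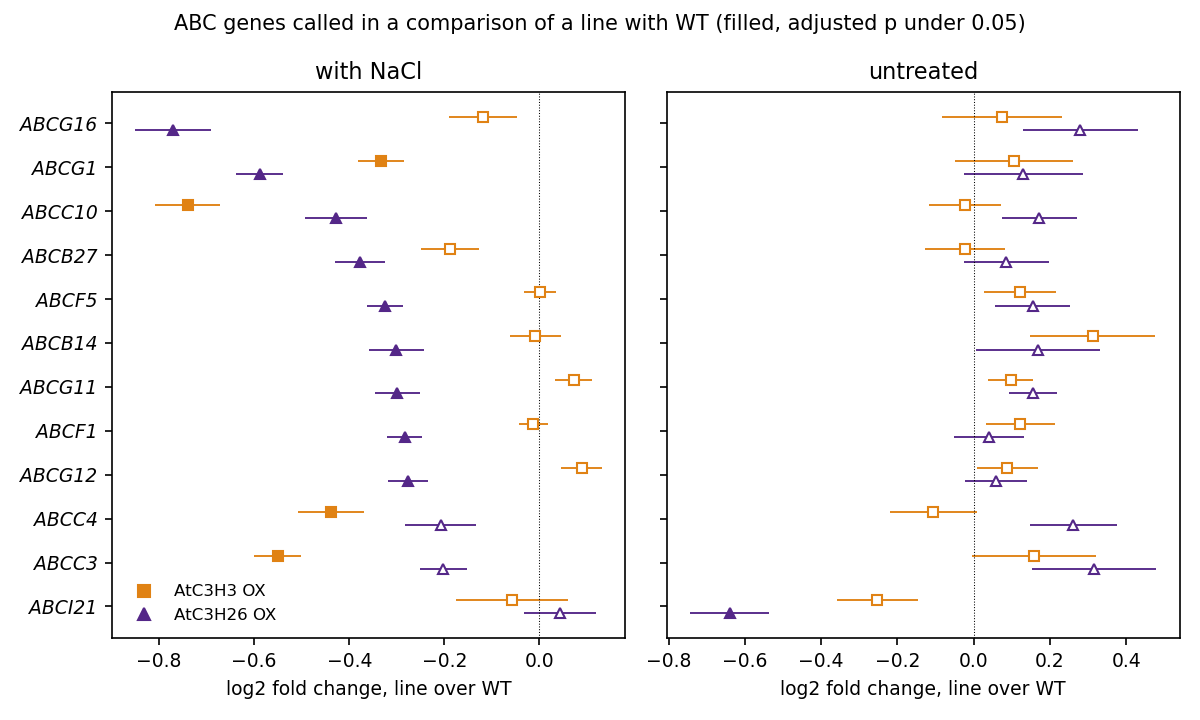
Log2 fold changes of each line over WT (bars, standard error), with NaCl (left) and untreated (right), for the 12 members called in at least 1 of the 4 comparisons. Filled symbols were called; with NaCl all filled symbols lie below 0, and in untreated seedlings ABCI21 in AtC3H26 OX is the filled one.

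Few members were called between untreated seedlings of the lines and untreated WT, though more were in other fits. In AtC3H3 OX 0 of 88 members were called by limma, beside 0.0199% of all 20056 genes called higher and 0.0249% called lower. At an unadjusted p under 0.05 there were 6 members, all lower, and the share of all genes at that threshold was not counted. In AtC3H26 OX 1 of 89 members was called, beside 0.828% higher and 0.823% lower of all 20174 genes. It was ABCI21, at 9.46 and 10.0 FPKM in AtC3H26 OX, against 15.6 and 13.7 FPKM in the first WT set and 17.3 and 16.6 FPKM in the second (log2 fold change -0.64, adjusted p = 0.0391). All 4 WT libraries were above both line libraries. The call was lost when any of the 6 libraries other than WT untreated set 1 replicate 2 was left out. With all 14 libraries in one fit 10 members were called in AtC3H3 OX and 19 in AtC3H26 OX, and against WT set 2 alone 9 and 5 were. The root marker sum was 104 to 114 FPKM in the untreated lines, against 145 to 176 FPKM in untreated WT, and its part in these calls was not tested.

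The untreated WT sets differed from each other in 2 of 88 members, beside 2.81% higher and 7.32% lower of all 19783 genes. ABCG27 stood at 2.95 and 3.32 FPKM in set 2, against 5.56 and 5.80 FPKM in set 1 (log2 fold change -0.69, adjusted p = 0.0157). ABCC3 was lower in set 2 by 0.45 on the log2 scale (adjusted p = 0.0206). These differences between samples of the same genotype and treatment are of the size of several differences between the lines and WT. The number called was 10 without WT untreated set 2 replicate 2, 4 without WT untreated set 2 replicate 1, 1 without WT untreated set 1 replicate 1 and 0 without WT untreated set 1 replicate 2.

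Whether the salt response itself differed between a line and WT was tested as an interaction. For AtC3H3 OX 0 of 91 members were called by limma, beside 0.0385% of all 20797 genes in each direction, and 6 members had an unadjusted p under 0.05. For AtC3H26 OX 3 of 91 members were called, all with a smaller increase in AtC3H26 OX than in WT, beside 0.671% higher and 0.752% lower of all 20878 genes. The interaction was -1.05 ± 0.17 for ABCG16 (SE, adjusted p = 0.0265), -0.60 ± 0.12 for ABCC10 (adjusted p = 0.0466) and -0.45 ± 0.08 for ABCG11 (adjusted p = 0.0326). At an unadjusted p under 0.05 this interaction was negative for 16 members and positive for 5. A negative value can be a smaller increase or a larger decrease in AtC3H26 OX than in WT. Shares of all genes at the unadjusted threshold were not counted for either interaction. Leaving out any of the 2 WT NaCl or the 4 AtC3H26 OX libraries ended all 3 calls, and 1 was left without WT untreated set 1 replicate 1. After quantile normalization ABCG16 alone was still called, with a pseudocount of 0.1 ABCG11 alone was, and without a filter on low values ABCC10 was not (adjusted p = 0.0571).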

How the data were processed

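Total RNA of whole seedlings was made into directional libraries (NEBNext Ultra II) and sequenced. The authors trimmed the reads (FASTX_Trimmer, BBMap), aligned them to TAIR10 with TopHat and deposited FPKM values from Cufflinks for 14 libraries. FPKM are divided by gene length and library size, so absolute read counts are unknown, and no counting interval is given. Relative depth, from the steps of low values, ranged from 0.638 to 1.07 of WT NaCl replicate 2. Of 37980 listed rows, 218 had no name and were at 0.

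limma 3.58.1 (R 4.3.3, trend) was run on log2(FPKM + 1) for the libraries of a comparison alone, on every gene that reached 1 FPKM in 2 or more of them. Benjamini-Hochberg adjusted p under 0.05 over these genes was a call. Other pseudocounts, filters, scalings, sample choices and a replicate block were tried. Fold changes are on this scale and understate low genes. Members named are those of known role, the 10 largest calls in each direction for salt, the 6 largest for other comparisons (the 3 next beside them in AtC3H26 OX with NaCl, and ABCG10, ABCG17, ABCG18, ABCG21, ABCG42 and ABCC7, were named after their values were seen) and the 10 most abundant. The members and lists were chosen with earlier results of these data known. No sequence tables were used here; 3 rows are named PEN3 (ABCG36), which is not described, and 1 further member is not reported here. On simulated data with 200 changed genes the salt fit in WT recovered 100% of those changed by 1 on the log2 scale, over 20436 genes. The simulated noise left out the difference between the WT sets, and no low gene was among those changed. The recovery therefore does not carry over to low members or to the spread of the real WT libraries.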

Additional observations from a re-analysis of the deposited data

Results flagged for a closer look

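ABCG15, an ABCG protein close to ABCG11 and ABCG12, had 1 of the 4 untreated WT libraries far below the others, its gap to the nearest being 0.895 of the whole range. The library was WT untreated set 2 replicate 1, at 3.17 FPKM, beside 3.81 to 3.89 FPKM in the other 3. ABCG32 stood apart in the same library, at 31.5 FPKM beside 37.7 to 38.9 FPKM, with a gap of 0.845 of the range. Dixon's 95% limit is passed by chance in about 1 of 20 groups of 4, and 33 members were examined.

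The test of the difference in salt response between AtC3H26 OX and WT passed the threshold for ABCG16 (-1.05), ABCC10 (-0.60) and ABCG11 (-0.45). After quantile normalization 1 still passed it (ABCG16), and with a pseudocount of 0.1 likewise 1 (ABCG11).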

How the results depend on the processing

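The total of members called in each salt comparison stayed within 1.5 times its value under another pseudocount, filter or scaling, with all 14 libraries in one fit, with 1 WT set alone, with the replicate block, with NAP7 (ABCI6) added and, chosen after seeing the data, with PGP1 and PDR2 counted. The number that fell in WT was 23 with all 14 libraries in one fit, against 15 as reported. Leaving out 1 library gave 34 to 62 calls in WT (59 with all), 47 to 51 in AtC3H3 OX (60) and 43 to 47 in AtC3H26 OX (56). With NaCl it gave 1 to 4 for AtC3H3 OX against WT and 0 to 9 for AtC3H26 OX against WT. In untreated seedlings it gave 0 for AtC3H3 OX, 0 to 1 for AtC3H26 OX and 0 to 10 between the WT sets. It gave 0 for the AtC3H3 OX interaction and 0 to 2 for the AtC3H26 OX interaction.

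Other counts moved more. With all 14 libraries in one fit, 10 members were called for AtC3H3 OX untreated, 19 for AtC3H26 OX untreated, 16 between the WT sets, 5 for the AtC3H3 OX interaction and 18 for the AtC3H26 OX interaction. Against WT set 1 alone the counts were 3 for AtC3H26 OX untreated and 3 and 10 for the AtC3H3 OX and AtC3H26 OX interactions. Against WT set 2 alone they were 9 and 5 for AtC3H3 OX and AtC3H26 OX untreated and 9 and 12 for the interactions. Without a filter, or with the filter over all 14 libraries, 1 member was called for AtC3H3 OX with NaCl and 0 for AtC3H26 OX untreated, and without a filter 1 was called between the WT sets. Quantile normalization left 0 for AtC3H26 OX untreated and 1 for the AtC3H26 OX interaction, and a pseudocount of 0.1 left 1 for that interaction. The cause of these moves was not tested. With the replicate number as a block, 0 members were called for AtC3H26 OX untreated and 0 for the AtC3H26 OX interaction. The 21 correlations of same-numbered deviations lay between -0.085 and 0.092, so the numbers showed no pairing over all genes. Whether some groups shared a batch was not tested. None of 76 named results reversed under any alternative, and 50 kept their side of the threshold under all of them. Calls within the lines rest on 2 libraries a group.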
